A study of Mus musculus with 18 samples.

Results

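The cell cycle and E2F genes described here are 53 listed genes that encode cyclins, cyclin-dependent kinases and their phosphatases, the E2F, DP and RB protein families, proteins of DNA replication and proteins of mitosis. They are a list of names, drawn up with earlier results of these data known, and they were found among the 50686 genes of the count files by matching Ensembl identifiers to mouse gene symbols. Each of the 53 had 1 identifier, and all 53 passed the filter on low counts in every comparison. The study used E0771 cells, a mouse line derived from a triple-negative mammary tumor, that carried a firefly luciferase construct. A retroviral vector with an mCherry marker brought in a hairpin against Renilla luciferase (cntrl) or 1 of 2 hairpins against Cdk8 (shCdk8-1 and shCdk8-2), and cells were sorted for mCherry, so each line was a sorted pool. Cells of each line received DMSO or 1 µM Senexin B (SnxB), an inhibitor of the kinases CDK8 and CDK19, for 48 h. This gave 6 groups of 3 RNA-seq libraries, 18 in all. All groups shared the luciferase construct, the vector and the sort, and no source states that the 3 libraries of a group came from separate cultures, so the p-values measure the spread between these libraries, which may be technical.

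In the textbook account of the cell cycle, D-type cyclins with CDK4 or CDK6, and then E-type cyclins with CDK2, phosphorylate RB and so release E2F transcription factors, which bind DNA together with a DP partner (TFDP1 or TFDP2). E2F1 to E2F3 activate genes of DNA synthesis, while E2F4 to E2F8 mostly repress. The genes of G2 and mitosis form a later wave that is driven by B-MYB and FOXM1 and read through promoter elements named CHR and CCAAT box. CDK8 and CDK19 belong to the kinase module of Mediator, the complex that links transcription factors to RNA polymerase II.

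The libraries held 16452260 to 22664693 counts (median 19029320), and 3 counts corresponded to 0.132 to 0.182 CPM (counts per 1000000 counts, with levels given below scaled by the TMM method). Cdk8 mRNA, the target of the hairpins, was 56.1 ± 2.13 CPM (SD, n = 3) in cntrl cells in DMSO, 21.4 ± 2.44 in shCdk8-1 cells and 38.9 ± 0.376 in shCdk8-2 cells. Markers of a mammary epithelial origin were low or absent. Krt18 and Epcam did not pass 0.0591 and 0.476 CPM, and Vim, a mesenchymal marker, was at 3562 to 4498 CPM. Of the receptors that define the triple-negative class, Pgr was at 0 in all libraries, Erbb2 was at 45.8 to 60.7 CPM, and Esr1 was at 18.2 to 24.2 CPM in cntrl libraries and at 0.476 to 1.54 CPM in the knockdown lines. Several markers differed between the lines. The summed level of 3 adipocyte markers was 626 to 701 CPM in cntrl libraries, 18.3 to 21.1 in shCdk8-1 libraries and 19.7 to 20.8 in shCdk8-2 libraries in DMSO, nearly all of it from Fabp4, while Adipoq and Plin1 did not pass 0.108 CPM. The 6 epithelial markers summed to 0.325 to 0.490, 8.22 to 9.18 and 12.5 to 14.6 CPM in the same groups, most of it from Krt8 in the knockdown lines. The 3 endothelial markers summed to 4.95 to 5.61, 13.6 to 15.2 and 6.41 to 6.83 CPM, but they moved in opposite directions. Pecam1 had means of 0.286, 14.3 and 5.85 CPM in cntrl, shCdk8-1 and shCdk8-2 cells in DMSO. Cdh5 had means of 4.34, 0.206 and 0.595 CPM and Kdr of 0.606, 0.0534 and 0.112 CPM. The 6 leukocyte markers summed to at most 0.875 CPM and the 2 erythroid markers to at most 0.357 CPM in any library. The part of these differences between lines in the results on cell cycle genes was not tested.

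All 53 genes were well expressed, with at least 205 counts in every library. Per transcript length (RPKM, CPM per kilobase of exon), their levels in cntrl cells in DMSO ran from 3.33 for Rb1 to 159 for Ccna2, with a median of 33.5 RPKM. Among the D-type cyclins, Ccnd1 was at 143 ± 4.34 RPKM (SD, n = 3), Ccnd2 at 98.2 ± 1.18 and Ccnd3 at 9.02 ± 0.304, and the SDs of these 3 levels did not overlap. Cdk4 (92.5 ± 3.22 RPKM) stood above Cdk6 (14.3 ± 1.12). Among the E2F genes, the repressor-type E2f4 (48.3 ± 0.735 RPKM) and E2f8 (44.8 ± 1.20) were highest, the activators E2f1 (16.5 ± 0.245) and E2f3 (16.5 ± 0.270) did not differ beyond their spread, and E2f2 (6.65 ± 0.258) and E2f7 (6.62 ± 0.349) were lowest and likewise not distinguishable. Rb1 (3.33 ± 0.0463 RPKM) lay below its relatives Rbl1 (14.5 ± 0.640) and Rbl2 (14.7 ± 0.572), which did not differ beyond their spread. Myc, which encodes a transcription factor that drives growth and entry into the cycle, was at 119.9 ± 4.79 RPKM.

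**Figure D1:**
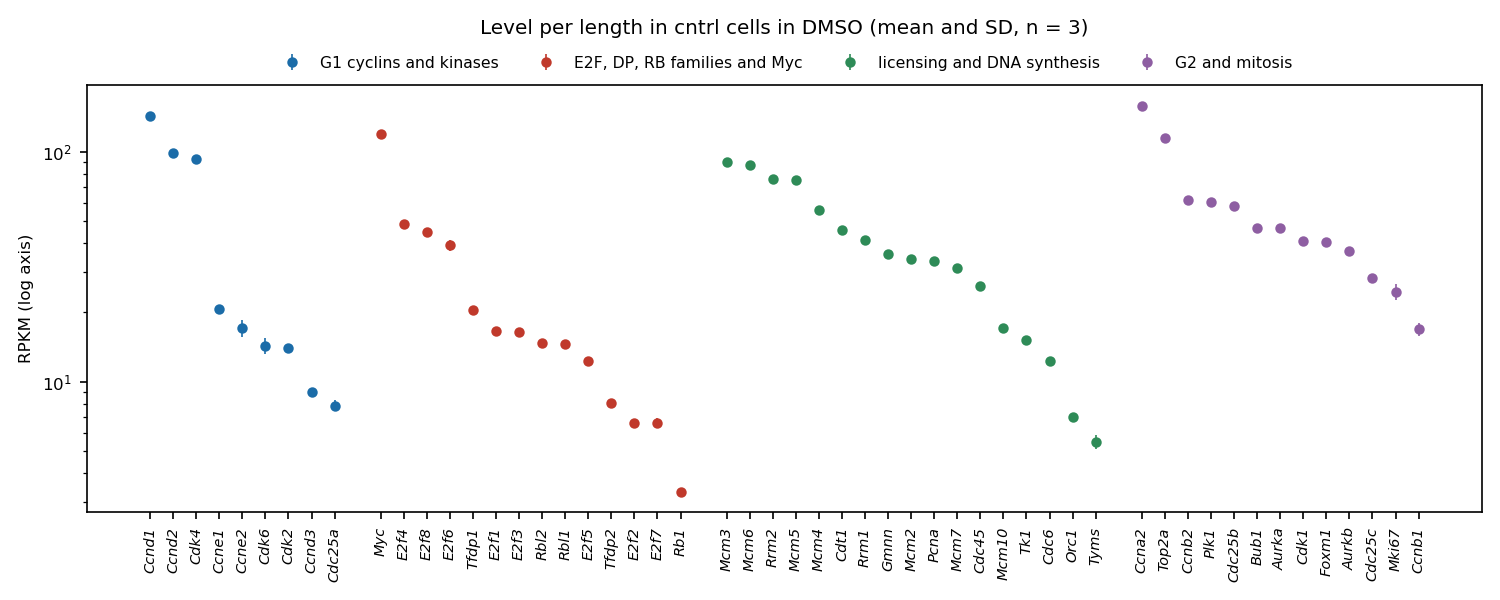
Mean level per length (RPKM, log axis) of the 53 cell cycle genes in cntrl cells in DMSO, in 4 role groups, with the SD of 3 libraries as bars. Levels run from 3.33 RPKM (Rb1) to 159 RPKM (Ccna2), and most SD bars are smaller than the points.

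The promoters of these genes carried E2F and CHR letters more often than promoters at large. RefSeq promoter sequences of GRCm38.p6, from 250 bases before to 50 bases after the transcript start, were matched to 40 of the 53 genes (46 promoters, as 6 genes had 2). The E2F letters searched were TTTCCCGC, TTTCGCGC, TTTGCCGC and TTTGGCGC on both strands, where a match on one strand can overlap a match on the other. They occurred in 16 of the 46 promoters (34.8%), against 744 of all 32851 promoters (2.26%). The CHR letters TTCGAA or TTTGAA on either strand occurred in 15 of the 46 promoters (32.6%) against 19.2% of all, and CCAAT on either strand in 29 (63.0%) against 37.4%. CHR letters were found in 8 of the 9 matched G2 and mitosis genes and in 0 of the 6 matched G1 genes, and CCAAT in all 9 of the former. The following windows of 30 bases on the strand of the gene show the first match to E2F letters in capitals. The first 3 belong to genes that were higher in both knockdown lines, the fourth to a gene that was lower in both, and the last 4 to genes called with neither hairpin, as described further on.
Orc1, chr4:108579416-108579445, plus strand: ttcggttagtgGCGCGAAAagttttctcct
Mcm7, chr5:138172030-138172059, minus strand: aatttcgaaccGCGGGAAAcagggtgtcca
Cdc25a, chr9:109875501-109875530, plus strand: ggtgaattccgTTTGGCGCcaactaggaaa
E2f7, chr10:110745230-110745259, plus strand: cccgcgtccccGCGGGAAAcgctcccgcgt
Cdk1, chr10:69353025-69353054, minus strand: tttccgctcccTTTCGCGCtctgcgctccc
Mcm5, chr8:75109345-75109374, plus strand: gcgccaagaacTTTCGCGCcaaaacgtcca
Rbl1, chr2:157204534-157204563, minus strand: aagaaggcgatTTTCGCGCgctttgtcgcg
Cdk2, chr10:128705173-128705202, minus strand: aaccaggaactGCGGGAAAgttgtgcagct
The next windows show the first match to CHR letters in capitals, in a mitotic gene that was lower in both knockdown lines (Cdc25b), a mitotic gene that was higher in both (Aurka) and mitotic genes called with neither (Cdk1 and Mki67).
Cdc25b, chr2:131186943-131186972, plus strand: ccgctgttatttTTCGAAtatataaggagg
Aurka, chr2:172370521-172370550, minus strand: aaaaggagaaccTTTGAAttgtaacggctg
Cdk1, chr10:69352966-69352995, minus strand: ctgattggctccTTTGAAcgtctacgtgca
Mki67, chr7:135716478-135716507, minus strand: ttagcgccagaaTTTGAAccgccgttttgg
E2F letters were thus found beside each kind of outcome. Of the matched genes, they were in 7 of 16 that were higher with both hairpins, 1 of 4 that were lower with both and 5 of 11 called with neither. A match of letters is not evidence of binding in these cells.

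To see whether depletion of Cdk8 was accompanied by a change in cell cycle genes, each knockdown line was compared with cntrl cells in DMSO. Genes of G1 entry and DNA replication were mostly higher and genes of mitosis were mixed. Ccne1, E2f2, E2f5 and Myc rose most, and Rb1 fell most. With shCdk8-1, 35 of the 53 genes were called at an adjusted p under 0.05 (edgeR's quasi-likelihood test with Benjamini-Hochberg adjustment over 12590 genes), 27 higher and 8 lower. Among all genes tested 60.6% were called, 30.0% higher and 30.6% lower, so that the share of cell cycle genes called in either direction (66.0%) was near the background, while 50.9% were higher and 15.1% lower. With shCdk8-2, 33 were called by the same test, 24 higher (45.3%) and 9 lower (17.0%), where 58.2% of all genes tested were called, 28.7% higher and 29.5% lower. The median log2 fold change of the 53 genes was 0.09 with each hairpin, against 0.00191 and 0.00432 over all genes tested, and their median absolute change of 0.20 and 0.16 was below that of all genes (0.26 and 0.24). The 2 comparisons share the cntrl libraries. In 20 genes both hairpins were called higher, in 8 both were called lower, and in 0 the calls had opposite signs, where 23.9% of all genes were called higher with both and 25.2% lower with both. In 0 of the 53 genes did a called change exceed 2-fold, against 12.3% of all genes with shCdk8-1 and 10.8% with shCdk8-2. The shCdk8-1 libraries all lay above the cntrl libraries in 29 of the 53 genes and all below them in 10 (32.7% and 32.1% of all genes), and the shCdk8-2 libraries in 30 and 10 (33.2% and 31.8%). A further 7 genes were called with shCdk8-1 alone, 5 with shCdk8-2 alone and 13 with neither. RNA-seq of bulk cells cannot tell fewer cells in a phase from less RNA per cell. In culture, the study itself detected no difference in proliferation or cell cycle distribution between the knockdown lines and cntrl cells.

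**Figure D2:**
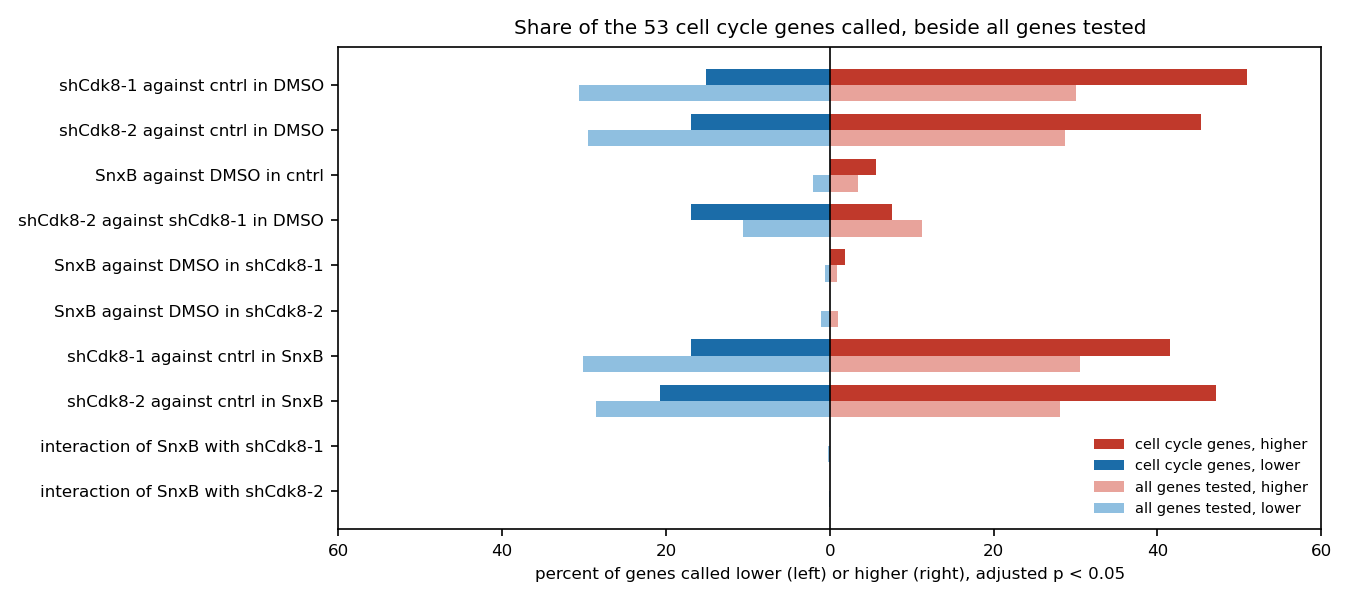
Percent of the 53 cell cycle genes (dark bars) and of all genes tested (light bars) called higher (right of 0) or lower (left of 0) at an adjusted p under 0.05 in the 10 comparisons. With shCdk8-1 in DMSO 50.9% of the cell cycle genes were called higher against 30.0% of all genes, and in the interaction comparisons 0 cell cycle genes were called.

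**Figure D3:**
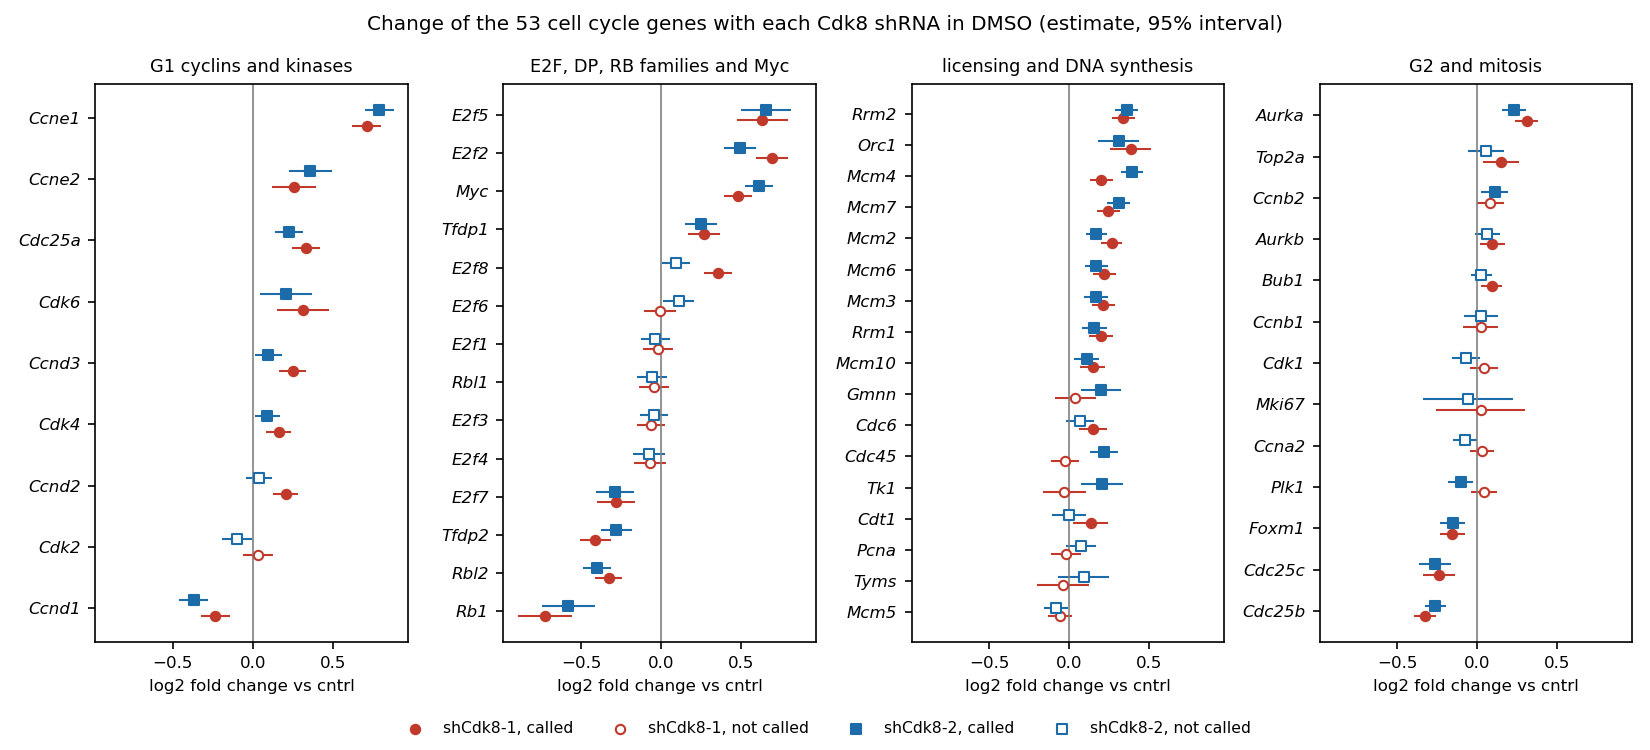
Log2 fold change against cntrl in DMSO (x axis) of the 53 cell cycle genes with shCdk8-1 (red circles) and shCdk8-2 (blue squares), by role, with 95% intervals as lines. Filled symbols are called at an adjusted p under 0.05 and open symbols are not, and all estimates lie between -0.73 (Rb1) and 0.79 (Ccne1).

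Of the 9 genes of G1, 6 were higher with both hairpins (Ccnd3, Ccne1, Ccne2, Cdk4, Cdk6 and Cdc25a), Ccnd1 was lower with both, Ccnd2 was higher with shCdk8-1 alone, and Cdk2 was called with neither. Ccne1 encodes cyclin E1, the partner of CDK2 at the start of S phase (ENSMUSG00000002068.16, minus strand of chromosome 7 from 38097984 to 38107534 of GRCm38). Its level was 54.0, 54.5 and 57.6 CPM in cntrl libraries, 88.6, 89.0 and 94.9 in shCdk8-1 libraries and 94.2, 97.7 and 96.7 in shCdk8-2 libraries in DMSO. All 6 knockdown libraries stood above all 3 cntrl libraries. The log2 fold change was 0.71 (SE 0.0421, adjusted p = 5.06e-10) with shCdk8-1 and 0.79 (SE 0.0419, adjusted p = 1.98e-10) with shCdk8-2, or 1.64-fold and 1.73-fold.

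Ccne2, the second E-type cyclin, was at 55.7, 58.6 and 65.5 CPM in cntrl libraries, 74.4, 71.5 and 69.9 in shCdk8-1 libraries and 82.5, 70.8 and 78.6 in shCdk8-2 libraries, with log2 fold changes of 0.26 (SE 0.0644, adjusted p = 0.00242) with shCdk8-1 and 0.36 (SE 0.0640, adjusted p = 1.60e-04) with shCdk8-2. The knockdown libraries lay above the cntrl libraries without overlap. Ccnd1 (ENSMUSG00000070348.5, minus strand of chromosome 7 from 144929931 to 144939925), the cyclin that links growth factor signals to CDK4 and CDK6, moved the other way, with 686, 649 and 681 CPM in cntrl libraries, 565, 571 and 579 in shCdk8-1 libraries and 508, 540.3 and 518 in shCdk8-2 libraries. Every knockdown library was below every cntrl library, with log2 fold changes of -0.23 (SE 0.0422, adjusted p = 1.54e-04) with shCdk8-1 and -0.37 (SE 0.0422, adjusted p = 1.55e-06) with shCdk8-2.

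Cdc25a, which encodes a phosphatase that activates CDK2, was at 66.5, 59.5 and 63.3 CPM in cntrl libraries, 79.8, 80.4 and 78.5 in shCdk8-1 libraries and 72.8, 75.9 and 73.9 in shCdk8-2 libraries and rose by 0.33 and 0.23 on the log2 scale with shCdk8-1 and shCdk8-2 (adjusted p = 3.64e-06 and 2.03e-04). Its groups did not overlap. Cdk4 and Cdk6, the kinases of the D-type cyclins, rose less, by 0.16 and 0.09 and by 0.31 and 0.21 on the log2 scale, and Ccnd3 by 0.25 and 0.10. The adjusted p of Ccnd3 and Cdk4 with shCdk8-2 was 0.0492 and 0.0421, close to the threshold. Cdk2 had log2 fold changes of 0.03 and -0.10 that did not pass the test.

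Among the 14 genes of the E2F, DP and RB families and Myc, E2f2, E2f5, Tfdp1 and Myc were higher with both hairpins, and E2f7, Tfdp2, Rb1 and Rbl2 were lower with both. E2f8 was higher with shCdk8-1 alone, and E2f1, E2f3, E2f4, E2f6 and Rbl1 were called with neither. Rb1 (ENSMUSG00000022105.6, minus strand of chromosome 14 from 73183673 to 73325822), the retinoblastoma gene whose protein holds activator E2Fs in check, was at 19.96, 19.8 and 20.3 CPM in cntrl libraries, 11.5, 12.4 and 12.5 in shCdk8-1 libraries and 13.6, 12.9 and 13.9 in shCdk8-2 libraries. The lowest cntrl library was above the highest knockdown library. The log2 fold change was -0.73 (SE 0.0800, adjusted p = 9.01e-07) with shCdk8-1 and -0.58 (SE 0.0784, adjusted p = 1.03e-05) with shCdk8-2, that is a level of 0.605 and 0.670 times that of cntrl cells.

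Rbl2, which encodes the RB relative p130, fell likewise, by a log2 fold change of -0.33 and -0.40, whereas Rbl1 (p107) had -0.04 and -0.06 and was not called. E2f2 (ENSMUSG00000018983.9, plus strand of chromosome 4 from 136172394 to 136196057), an activator E2F, was at 33.8, 32.1 and 31.4 CPM in cntrl libraries, 50.8, 53.6 and 52.99 in shCdk8-1 libraries and 45.1, 45.7 and 46.8 in shCdk8-2 libraries. The log2 fold change was 0.69 (SE 0.0468, adjusted p = 2.64e-09) with shCdk8-1 and 0.49 (SE 0.0471, adjusted p = 2.09e-07) with shCdk8-2, and the 3 groups did not overlap with each other.

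E2f5 (ENSMUSG00000027552.14, plus strand of chromosome 3 from 14578641 to 14606309), a repressor-type E2F that works with p130, was at 22.1, 21.7 and 21.7 CPM in cntrl libraries, 34.0, 31.9 and 35.8 in shCdk8-1 libraries and 35.4, 35.4 and 32.8 in shCdk8-2 libraries. Its log2 fold change was 0.63 (SE 0.0750, adjusted p = 1.99e-06) with shCdk8-1 and 0.66 (SE 0.0747, adjusted p = 1.52e-06) with shCdk8-2, and again the knockdown libraries lay above the cntrl libraries. E2f1, the best known activator, showed 51.9, 51.6 and 53.1 CPM in cntrl libraries, 50.9, 52.0 and 52.0 in shCdk8-1 libraries and 52.4, 52.3 and 48.7 in shCdk8-2 libraries, with log2 fold changes of -0.02 (95% interval -0.11 to 0.07) and -0.03 (-0.13 to 0.06). The intervals hold 0 and leave room for a fall of about 0.13 or a rise of about 0.07 on the log2 scale. The sign of E2f1 turned when library totals replaced TMM. E2f3 (-0.06 and -0.04), E2f4 (-0.07 and -0.08) and E2f6 (-0.01 and 0.11) were not called either. The atypical repressors diverged, as E2f7 fell with both hairpins (-0.28 and -0.28) and E2f8 rose with shCdk8-1 (0.36, adjusted p = 1.36e-06) but had 0.09 with shCdk8-2 (adjusted p = 0.0696).

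The DP partners changed in opposite directions. Tfdp1 rose by 0.27 and 0.25 on the log2 scale, while Tfdp2 was at 116, 112 and 111 CPM in cntrl libraries, 84.5, 89.4 and 80.9 in shCdk8-1 libraries and 92.8, 94.7 and 92.5 in shCdk8-2 libraries and had log2 fold changes of -0.41 (SE 0.0457, adjusted p = 9.68e-07) with shCdk8-1 and -0.28 (SE 0.0453, adjusted p = 6.51e-05) with shCdk8-2. Myc (ENSMUSG00000022346.15, plus strand of chromosome 15 from 61985391 to 61990374) was at 322, 315 and 340.4 CPM in cntrl libraries, 450.0, 463 and 454 in shCdk8-1 libraries and 492, 527 and 483 in shCdk8-2 libraries. All knockdown libraries were above all cntrl libraries, and shCdk8-2 libraries above shCdk8-1 libraries, with log2 fold changes of 0.48 (SE 0.0420, adjusted p = 5.63e-08) with shCdk8-1 and 0.61 (SE 0.0419, adjusted p = 4.18e-09) with shCdk8-2.

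**Figure D4:**
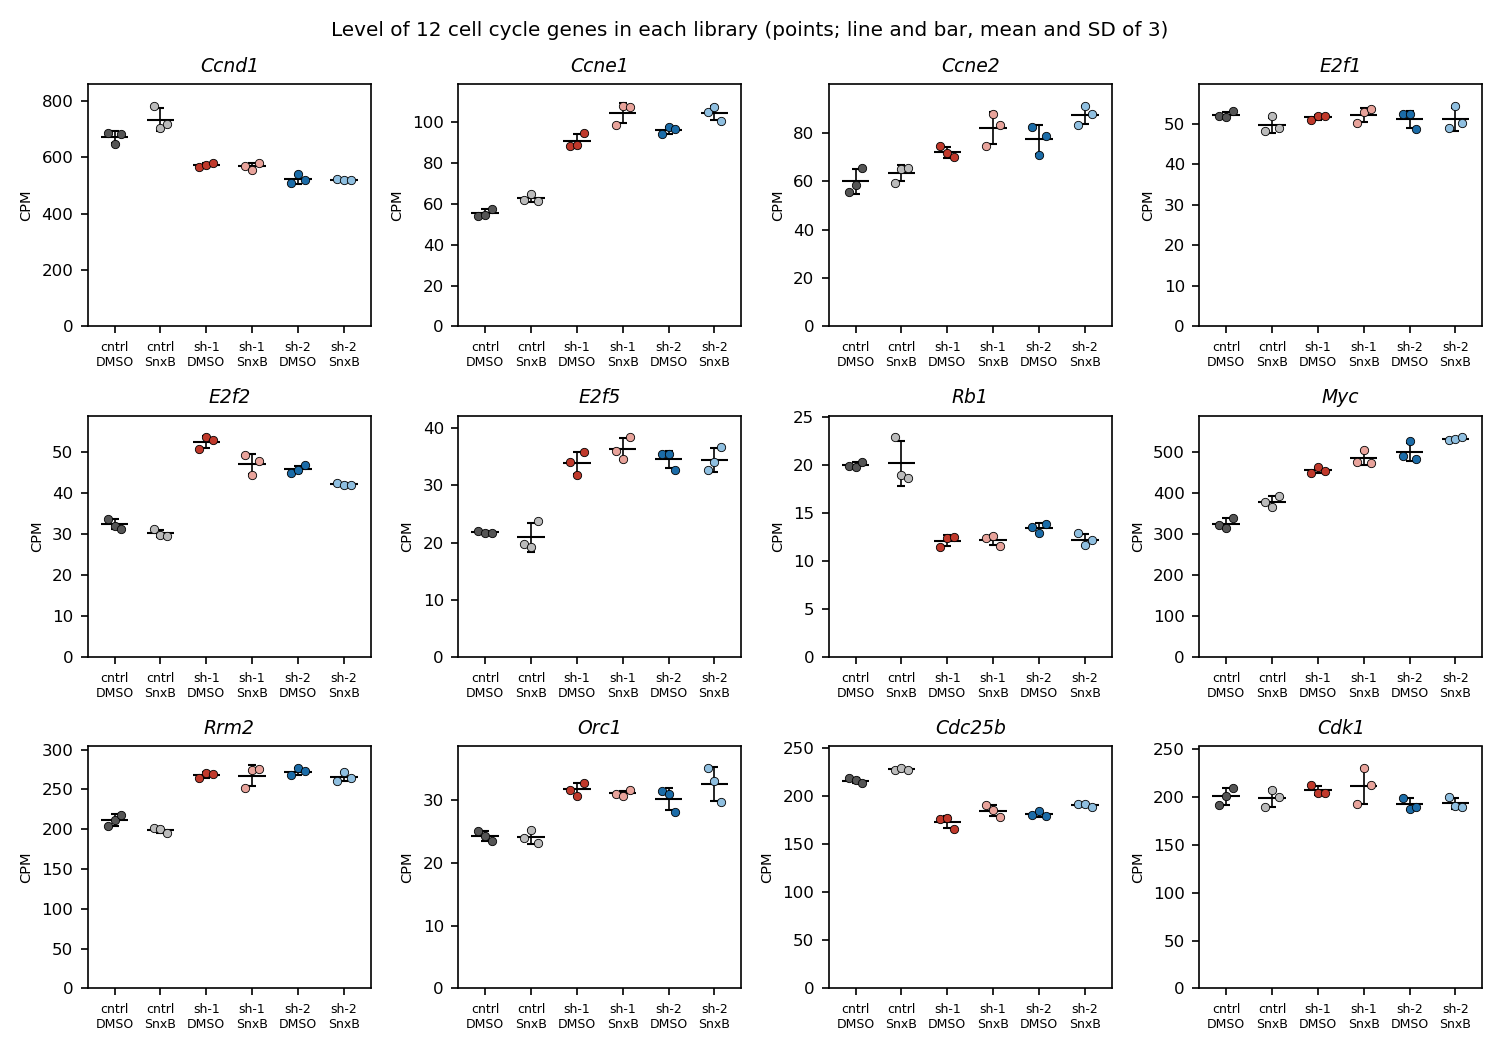
Level (CPM, axis from 0) of 12 cell cycle genes in each of the 18 libraries, with points for libraries, and lines and bars for the mean and SD of 3. Ccne1, E2f2, E2f5, Myc, Rrm2 and Orc1 are higher and Rb1, Ccnd1 and Cdc25b lower in all knockdown libraries in DMSO than in cntrl libraries in DMSO, while E2f1 and Cdk1 overlap.

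Of the 17 genes of origin licensing and DNA synthesis, 9 were higher with both hairpins (Mcm2, Mcm3, Mcm4, Mcm6, Mcm7, Mcm10, Orc1, Rrm1 and Rrm2), 0 were lower with either, Cdc6 and Cdt1 were higher with shCdk8-1 alone, Cdc45, Gmnn and Tk1 were higher with shCdk8-2 alone, and Mcm5, Pcna and Tyms were called with neither. The summed level of the 17 genes was 2903 to 3024 CPM in cntrl libraries, 3309 to 3384 in shCdk8-1 libraries and 3321 to 3394 in shCdk8-2 libraries. Rrm2, the regulated subunit of ribonucleotide reductase that makes deoxynucleotides, was at 204, 212 and 218 CPM in cntrl libraries, 264, 270.3 and 269.8 in shCdk8-1 libraries and 268, 276 and 273 in shCdk8-2 libraries. Its log2 fold change was 0.34 (SE 0.0327, adjusted p = 1.82e-07) with shCdk8-1 and 0.36 (SE 0.0327, adjusted p = 1.19e-07) with shCdk8-2, and the knockdown libraries did not overlap with the cntrl libraries. The partner subunit Rrm1 rose by 0.20 and 0.16 on the log2 scale.

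Orc1, the subunit of the origin recognition complex that comes and goes with the cycle, was at 25.1, 24.3 and 23.6 CPM in cntrl libraries, 31.7, 30.7 and 32.8 in shCdk8-1 libraries and 31.5, 30.9 and 28.2 in shCdk8-2 libraries, with log2 fold changes of 0.38 (SE 0.0599, adjusted p = 3.86e-05) with shCdk8-1 and 0.31 (SE 0.0600, adjusted p = 3.43e-04) with shCdk8-2. The MCM genes encode the replicative helicase, a ring of 6 different subunits. Of these, Mcm4 was at 201, 204 and 198 CPM in cntrl libraries, 230.2, 242 and 222 in shCdk8-1 libraries and 264, 266 and 266 in shCdk8-2 libraries, and its log2 fold changes of 0.20 and 0.39 had adjusted p-values of 8.06e-05 and 5.98e-08. Mcm7 was at 133, 143 and 139 CPM in cntrl libraries, 163, 163 and 167 in shCdk8-1 libraries and 172, 171 and 174 in shCdk8-2 libraries and rose by 0.25 and 0.31 on the log2 scale. In Orc1, Mcm4 and Mcm7 the knockdown libraries were all above the cntrl libraries. Mcm2, Mcm3 and Mcm6 rose by 0.17 to 0.27 on the log2 scale, while the remaining ring subunit, Mcm5, had -0.06 and -0.08 and was not called (adjusted p = 0.191 and 0.0645). The sliding clamp gene Pcna (-0.02 and 0.07) and the thymidylate synthase gene Tyms (-0.04 and 0.09) were not called. The loading factors Cdc6 (0.15 and 0.07) and Cdt1 (0.13 with shCdk8-1) were called with shCdk8-1 alone. The helicase subunit Cdc45 (-0.02 and 0.22), geminin (Gmnn, the inhibitor of Cdt1, 0.04 and 0.20) and the thymidine kinase gene Tk1 (-0.03 and 0.20) were called with shCdk8-2 alone. Named pseudogenes exist for Pcna, Tyms, Ccnb1, Ccnb2 and Ccnd3. Their likeness to the genes was not measured here, and since reads that map to several places were left out of the counts, the levels of these 5 genes may be affected.

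The 13 genes of G2 and mitosis divided. Aurka was higher with both hairpins, Cdc25b, Cdc25c and Foxm1 were lower with both, Top2a, Aurkb and Bub1 were higher with shCdk8-1 alone, Ccnb2 was higher and Plk1 lower with shCdk8-2 alone, and Ccna2, Ccnb1, Cdk1 and Mki67 were called with neither. Their summed level was 3325 to 3398 CPM in cntrl libraries, 3380 to 3667 in shCdk8-1 libraries and 3302 to 3341 in shCdk8-2 libraries, with overlap. Aurka, a kinase of the spindle poles, was at 116, 117 and 119 CPM in cntrl libraries, 145, 145 and 148 in shCdk8-1 libraries and 144, 133 and 138 in shCdk8-2 libraries (log2 fold change 0.31 (SE 0.0342, adjusted p = 8.82e-07) with shCdk8-1 and 0.23 (SE 0.0342, adjusted p = 2.67e-05) with shCdk8-2), and its groups did not overlap with cntrl.

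The phosphatase genes Cdc25b and Cdc25c, whose products activate CDK1 at the entry into mitosis, fell, in contrast to Cdc25a. Cdc25b was at 219, 216 and 213 CPM in cntrl libraries, 176, 177 and 166 in shCdk8-1 libraries and 179.9, 184 and 179 in shCdk8-2 libraries, with log2 fold changes of -0.32 (SE 0.0323, adjusted p = 2.81e-07) with shCdk8-1 and -0.26 (SE 0.0322, adjusted p = 3.80e-06) with shCdk8-2. Cdc25c was at 56.98, 53.3 and 53.9 CPM in cntrl libraries, 46.3, 47.8 and 45.0 in shCdk8-1 libraries and 48.4, 45.0 and 43.5 in shCdk8-2 libraries and had log2 fold changes of -0.24 and -0.27 (adjusted p = 3.77e-04 and 1.65e-04). Foxm1, the transcription factor of the mitotic wave, was at 232, 235 and 232 CPM in cntrl libraries, 202, 215 and 211 in shCdk8-1 libraries and 209, 215 and 207 in shCdk8-2 libraries and had -0.16 and -0.15 (adjusted p = 0.00164 and 0.00197). In these 3 genes every knockdown library was below every cntrl library.

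Cdk1, the kinase of mitosis, was at 192, 201 and 209.9 CPM in cntrl libraries, 213, 205 and 205 in shCdk8-1 libraries and 199.7, 188 and 190.0 in shCdk8-2 libraries, with log2 fold changes of 0.04 (95% interval -0.05 to 0.13) and -0.07 (-0.16 to 0.02). The groups overlapped and the gene was not called. Mki67, which encodes the proliferation marker Ki-67, was at 268, 242 and 231 CPM in cntrl libraries, 209, 316 and 229 in shCdk8-1 libraries and 237, 225 and 253 in shCdk8-2 libraries, and its log2 fold changes of 0.02 (-0.26 to 0.30) and -0.06 (-0.34 to 0.22) were not called. Replicate 2 of shCdk8-1 was the highest of all 18 libraries in both Mki67 and Top2a, a topoisomerase gene (1256 CPM, against 1125 and 1073 in the other 2 libraries of its group). Without it the Mki67 change with shCdk8-1 was -0.18.

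Among the other mitotic genes, the log2 fold changes with shCdk8-1 and shCdk8-2 were 0.15 and 0.05 for Top2a, 0.09 and 0.06 for Aurkb, a kinase of the chromosomal passenger complex, and 0.09 and 0.03 for the spindle checkpoint gene Bub1. They were 0.08 and 0.11 for the B-type cyclin gene Ccnb2 and 0.04 and -0.10 for the polo-like kinase gene Plk1. The cyclin genes Ccna2 (0.03 and -0.08) and Ccnb1 (0.02 and 0.02) were not called.

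The 2 knockdown lines differed from each other in some of these genes. Between shCdk8-2 and shCdk8-1 in DMSO, 13 of the 53 genes were called by edgeR's quasi-likelihood test (22.0% of all genes tested were called, 11.3% higher and 10.6% lower), 0 of them beyond 2-fold (2.07% of all genes). Higher with shCdk8-2 were Cdc45 (0.24, adjusted p = 5.38e-04), Tk1 (0.23), Mcm4 (0.19) and Myc (0.13), all as log2 fold changes of shCdk8-2 against shCdk8-1. Lower were E2f8 (-0.27, adjusted p = 2.23e-04), E2f2 (-0.20), Ccnd2 (-0.17), Ccnd3 (-0.15), Plk1 (-0.15), Ccnd1 (-0.14), Cdk2 (-0.13), Ccna2 (-0.11) and Mcm2 (-0.09). These 13 were named after their values were seen. Of the 12 genes called with 1 hairpin alone, 5 passed this direct test (Ccnd2, E2f8, Cdc45, Tk1 and Plk1), and for the other 7 a difference between the hairpins was not shown. With 1 library left out, the count of 13 fell to between 7 and 12. It was 8 without shCdk8-1 replicate 1, 8 without shCdk8-1 replicate 3, 7 without shCdk8-2 replicate 1 and 8 without shCdk8-2 replicate 3. Such fits have fewer libraries in a group, and the share of all genes called in them was not counted.

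Inhibition of the kinases by SnxB was compared with DMSO in each line to ask whether blocked kinase activity was accompanied by a change in the same genes. In cntrl cells SnxB raised 3 of the 53 genes, and 0 were lower (edgeR's quasi-likelihood test, where 5.53% of all genes tested were called, 3.42% higher and 2.10% lower). These were Tfdp2, Myc and Ccne1, none of them beyond 2-fold (0.318% of all genes). The SnxB libraries all lay above the DMSO libraries in 14 of the 53 genes and all below them in 4, against 12.2% and 9.57% of all genes. Tfdp2 was at 140.2, 138 and 126 CPM in SnxB against 116, 112 and 111 in DMSO, without overlap, a log2 fold change of 0.26 (SE 0.0446, adjusted p = 0.00208). Myc was at 378, 367 and 394 CPM in SnxB, all above the DMSO libraries, with 0.22 (SE 0.0420, adjusted p = 0.00447). Ccne1 was at 62.0, 64.8 and 61.7 CPM in SnxB, again without overlap, with 0.18 (SE 0.0429, adjusted p = 0.0182).

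The call of Ccne1 in cntrl cells was lost without cntrl replicate 1 in DMSO (adjusted p = 0.0764), without replicate 2 in DMSO (0.0779) and without replicate 2 in SnxB (0.0916), at log2 fold changes of 0.17, 0.17 and 0.16. For the 50 other genes the SnxB change in cntrl cells was not called and ran from -0.21 (Tk1) to 0.13 (Ccnd1) on the log2 scale. The change of Tk1 was larger in size than that of Ccne1, and its SnxB libraries all lay below its DMSO libraries. In edgeR's test its adjusted p was 0.0742 with the filter on low counts and 0.00187 without it, and Tk1 itself passed the filter. The median absolute change of the 53 was 0.06, against 0.08 over all genes tested. Of the genes that moved most with the hairpins, Ccne1 and Myc were thus called with SnxB, and the others were not, with 95% intervals of the SnxB change of -0.15 to 0.17 for Rb1, -0.20 to 0.01 for E2f2 and -0.23 to 0.11 for E2f5. Tfdp2 was higher with SnxB in cntrl cells and lower with both hairpins, and Myc and Ccne1 were higher with SnxB and with both hairpins.

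**Figure D5:**
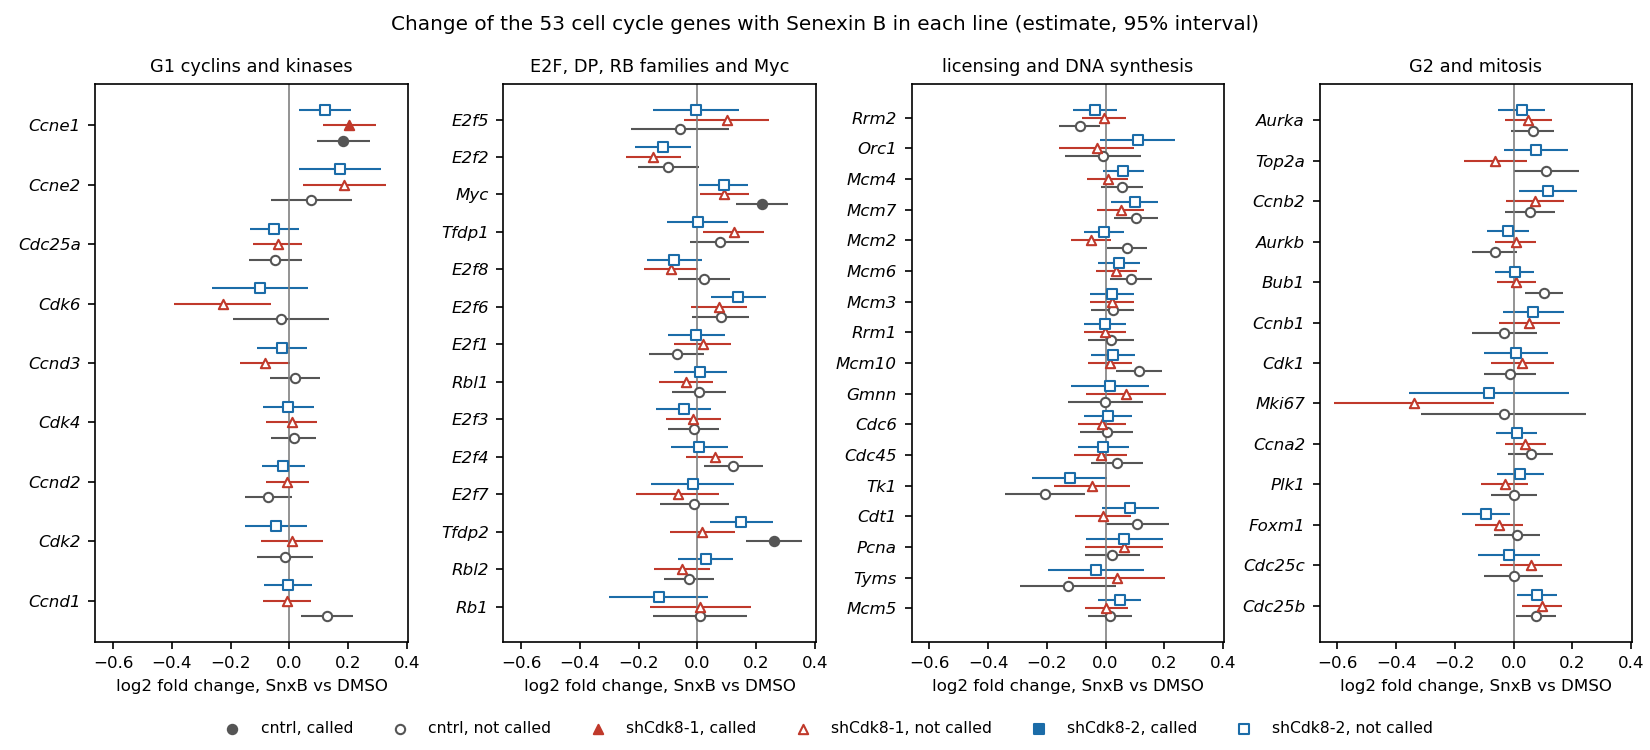
Log2 fold change of SnxB against DMSO (x axis) for the 53 cell cycle genes in cntrl (grey circles), shCdk8-1 (red triangles) and shCdk8-2 cells (blue squares), by role, with 95% intervals as lines. Filled symbols are called at an adjusted p under 0.05, which holds for Ccne1, Myc and Tfdp2 in cntrl cells and for Ccne1 in shCdk8-1 cells.

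In shCdk8-1 cells SnxB raised Ccne1 alone (1.48% of all genes tested were called, 0.916% higher and 0.564% lower, and 0.110% beyond 2-fold), from 88.6, 89.0 and 94.9 CPM in DMSO to 98.9, 108 and 107 CPM, with a log2 fold change of 0.20 (SE 0.0429, adjusted p = 0.0144) in edgeR's test. This call was lost without replicate 1 or 2 of shCdk8-1 in DMSO and without replicate 2 or 3 of shCdk8-1 in SnxB, where 0 genes were called, and 3 genes were called without replicate 1 in SnxB. In shCdk8-2 cells edgeR's quasi-likelihood test called 0 of the 53 (2.05% of all genes were called, 0.125% beyond 2-fold), and DESeq2 also called 0. Ccne1 had 0.12 (SE 0.0427, adjusted p = 0.200) there. The difference in the SnxB response between knockdown and cntrl cells was tested as an interaction. It called 0 of the 53 genes for shCdk8-1 and 0 for shCdk8-2 in edgeR and in DESeq2. In edgeR, 0.305% and 0.0548% of all genes were called, 0.0391% and 0.0157% beyond 2-fold. The interaction of Tfdp2 was -0.24 on the log2 scale for shCdk8-1 (95% interval -0.40 to -0.09, adjusted p = 0.278) and -0.11 for shCdk8-2 (-0.26 to 0.04, adjusted p = 0.938). That of Myc was -0.13 (-0.25 to -0.01) and -0.13 (-0.25 to -0.01), with adjusted p-values of 0.476 and 0.814. Without the filter on low counts, edgeR called 2 interactions with shCdk8-1, Tfdp2 (-0.27, adjusted p = 0.0220) and Mki67 (-0.33, adjusted p = 1.79e-04), whose adjusted p with the filter was 0.278 and 0.599. Both genes passed the filter, so their own counts were the same in both fits, and the estimates with it were -0.24 and -0.31. For Mki67, replicate 2 of shCdk8-1 in DMSO was the highest of all libraries. With the filter, a response to SnxB that differed between lines was not shown for any of the 53 genes.

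When all cells were in SnxB, the hairpins were compared with cntrl in the SnxB libraries of the same lines. The cntrl libraries in SnxB were also part of the fit behind the comparisons in DMSO. The comparisons in SnxB came from the fit of all 18 libraries, so they are not independent of those in DMSO. With shCdk8-1, 31 of the 53 genes were called (22 higher, 9 lower, where 60.6% of all genes tested were called, 30.5% higher and 30.1% lower), and with shCdk8-2, 36 (25 higher, 11 lower, where 56.7% were called, 28.1% higher and 28.6% lower). In 0 of the 53 was the change beyond 2-fold, against 12.8% and 10.8% of all genes. Ccne1 was at 98.9, 108 and 107 CPM in shCdk8-1 libraries and 105, 108 and 101 in shCdk8-2 libraries against 62.0, 64.8 and 61.7 in cntrl libraries, with log2 fold changes of 0.74 and 0.73. Rb1 was at 12.4, 12.6 and 11.6 and 12.9, 11.7 and 12.2 CPM against 22.9, 19.0 and 18.7, with -0.72 and -0.71. E2f5 had log2 fold changes of 0.80 and 0.72, E2f2 of 0.64 and 0.48, and Rrm2 of 0.43 and 0.42, all called by edgeR's test. Ccnd1 was lower by a log2 fold change of -0.37 and -0.50 and Tfdp2 by -0.65 and -0.38. Cdk6 and Mcm10, chosen after their values were seen, which were higher with both hairpins in DMSO, were not called in SnxB (0.12 and 0.14 for Cdk6, 0.05 and 0.03 for Mcm10). E2f1, Cdk1 and Mki67 were again not called with either hairpin. Mki67 had a log2 fold change of -0.28 with shCdk8-1 in edgeR's test (adjusted p = 0.0678). Without the filter on low counts the same test called it (-0.31, adjusted p = 1.47e-09). Mki67 itself passed the filter, so its own counts were the same in both fits.

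Further genes of the same processes, listed by function, were counted in the same comparisons. Of 45 other replication genes, 23 were higher and 9 lower with shCdk8-1, and 23 were higher and 3 lower with shCdk8-2 (30.0% and 30.6%, and 28.7% and 29.5%, of all genes tested), with median log2 fold changes of 0.12 and 0.16 against 0.00191 and 0.00432 over all genes. Rfc4, a subunit of the clamp loader, was at 42.4, 45.9 and 44.1 CPM in cntrl libraries, 75.7, 72.1 and 77.0 in shCdk8-1 libraries and 75.7, 70.0 and 73.6 in shCdk8-2 libraries, with log2 fold changes of 0.76 (SE 0.0471, adjusted p = 8.86e-10) with shCdk8-1 and 0.72 (SE 0.0471, adjusted p = 2.30e-09) with shCdk8-2. The histone chaperone gene Nasp rose by 0.53 and 0.55 on the log2 scale and the nucleotide hydrolase gene Dctpp1 by 0.34 and 0.46. Gins3, a subunit of the GINS complex of the helicase, went the other way, at 79.0, 88.2 and 83.6 CPM in cntrl libraries, 47.7, 46.6 and 41.2 in shCdk8-1 libraries and 58.5, 54.5 and 55.4 in shCdk8-2 libraries, with -0.89 (SE 0.0609, adjusted p = 2.99e-09) with shCdk8-1 and -0.58 (SE 0.0596, adjusted p = 4.87e-07) with shCdk8-2. Rfc4 and Gins3 had no overlap between knockdown and cntrl libraries.

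Of 38 other mitosis genes, 13 were higher and 9 lower with shCdk8-1, and 10 were higher and 9 lower with shCdk8-2, with median log2 fold changes of 0.05 and 0.02. The shares called, 57.9% and 50.0%, were near or below those of all genes (60.6% and 58.2%). The cytokinesis genes Anln (-0.47 and -0.49) and Kif20a (-0.30 and -0.26) fell with both hairpins, and Cdca5, a regulator of sister chromatid cohesion (0.14 and 0.42), and Incenp, a partner of Aurora B (0.16 and 0.31), rose. With SnxB in cntrl cells, 3 of the 45 replication genes were higher and 0 lower, and 1 of the 38 mitosis genes was higher and 1 lower. These are 6.67% and 5.26% called, near the 5.53% of all genes.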

How the data were processed

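RNA was sequenced as 50 bp single-end reads. Per the file headers and the methods of the study, the authors trimmed reads with Trimmomatic 0.36, mapped them with STAR 2.5.2b to GRCm38 (GENCODE M13) and counted reads by strand on the union of exons with featureCounts 1.5.1, whose defaults leave out reads mapped to several places. The deposited values are raw read counts per gene for 18 libraries, with the exon length of each gene as another deposited column, used for RPKM. Symbols were taken from GENCODE M21 of the same build (50376 of 50686 identifiers).

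Counts were analysed with edgeR 4.0.16 in R 4.3.3, with filterByExpr (minimum count 10, minimum total 15), TMM scaling, glmQLFit, glmQLFTest and Benjamini-Hochberg adjustment over all genes tested. The 12 libraries of cntrl cells and of knockdown cells in DMSO gave the 4 comparisons among them (12590 genes), and all 18 gave the other 6 (12772 genes). A gene was called at an adjusted p under 0.05. The thresholds of the study add a fold change above 2. Standard errors follow from the F statistics of that test, and CPM and RPKM use TMM factors over all 18 libraries. The code was tested on simulated counts.

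The members and lists were chosen with earlier results of these data known. Genes named with values are, in each role and list, up to 4 with the largest mean absolute change among those called alike with both hairpins, those called with SnxB, and Ccnd1, E2f1, Myc, Cdk1 and Mki67. Others were named to account for every member. Alternatives were DESeq2 1.42.0, scaling by its size factors or by library totals alone, no filter on low counts, only the groups compared or all 18 libraries in the fit, the fold threshold, the replicate block and each library left out. For shCdk8-2 the file headers number the libraries labelled 1, 2 and 3 as 2, 3 and 3 in DMSO and in SnxB, so 2 of the 3 may be repeats of 1 culture. The labels were used. A chi-square of counts over genes was taken per degree of freedom (1 under sampling noise alone). For the pair numbered 3 it was 10.9 in DMSO and 1.62 in SnxB. Over all pairs within groups it ran from 1.62, the value of that SnxB pair, to 17.5. Whether the libraries numbered 3 came from 1 culture was not tested, and each was kept as a library. Proteins and the promoters of 13 members were not used here.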

Additional observations from a re-analysis of the deposited data

Results flagged for a closer look

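1 result stood out because the response to SnxB differed between lines, and it concerns Cdkn1a, which encodes the CDK inhibitor p21 and is not among the 53 genes. Cdkn1a was at 45.8, 42.4 and 46.6 CPM in cntrl cells in DMSO and at 39.7, 36.4 and 39.4 CPM in SnxB, a log2 fold change of -0.22 (SE 0.0511, adjusted p = 0.0159) in edgeR's quasi-likelihood test. In the shCdk8-1 line Cdkn1a was at 58.0, 54.5 and 54.8 CPM in DMSO and at 64.8, 67.8 and 69.8 CPM in SnxB (0.27 (SE 0.0481, adjusted p = 0.00360)). SnxB libraries were all below DMSO libraries in cntrl cells and all above them in shCdk8-1 cells, and the interaction was 0.50 on the log2 scale (95% interval 0.35 to 0.65, adjusted p = 0.00304). In shCdk8-2 cells the response was 0.04, with an interaction of 0.27 that was not called (adjusted p = 0.327). Among the 53 cell cycle genes 0 were called in either interaction.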

How the results depend on the processing

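Over the alternatives, 530 of 545 values for single named genes kept their direction and side of the threshold. Most of these genes were picked for large changes among those called alike with both hairpins, so this count does not describe all 53 genes. When a call also required more than 2-fold, it was made for 0 of the 53 genes in each of the 10 comparisons. Without a filter, 2 genes were called in the interaction with shCdk8-1 (Tfdp2 and Mki67) and 3 with SnxB in shCdk8-1 cells (Ccne1, Cdk6 and Mki67), and with only the groups compared in the fit 0 were called with SnxB in shCdk8-1 cells. Other calls made only without a filter were Tk1 with SnxB in cntrl cells, Mki67 with shCdk8-1 in SnxB and Cdk6 with shCdk8-2 in SnxB. Between the hairpins in DMSO they were Tfdp2, Cdt1 and Gmnn. All 53 genes passed the filter, so their own counts were the same with and without it. With 1 library left out, counts ran from 33 to 34 (shCdk8-1 in DMSO), 29 to 34 (shCdk8-2 in DMSO), 2 to 4 (SnxB in cntrl cells), 7 to 12 (shCdk8-2 against shCdk8-1), 0 to 3 (SnxB in shCdk8-1 cells), 31 to 36 (shCdk8-1 in SnxB) and 32 to 35 (shCdk8-2 in SnxB). The call of Ccne1 with SnxB was lost in 9 settings, 4 in cntrl and 5 in shCdk8-1 cells. The log2 fold change of E2f1, not called, turned to 0.00488 (shCdk8-1) and 0.00501 (shCdk8-2) with library totals and to 0.00637 without shCdk8-2 replicate 3 in DMSO. That of Mki67, not called, turned to -0.02 without cntrl replicate 3 and -0.18 without shCdk8-1 replicate 2, and with shCdk8-2 to 0.01 (0.0129) without cntrl replicate 1. With 1 library left out, their lowest and highest values were -0.0502 and 0.00637 for E2f1 with shCdk8-2, -0.18 and 0.145 for Mki67 with shCdk8-1, and -0.0953 and 0.0129 for Mki67 with shCdk8-2. The cause of these changes was not tested. DESeq2 called 34 and 30 genes with the hairpins in DMSO, 3 with SnxB in cntrl cells and 12 between the hairpins, and library totals 36, 37, 4 and 12. With library totals the median log2 fold change of all genes lay between -0.0172 and 0.0667 in the 10 comparisons. The replicate numbers, taken from the labels, were not used as pairs, since the correlation of same-numbered libraries was over 0.1 for all 3 numbers in 0 comparisons. It was positive for all 3 in 2 comparisons, with the highest mean for shCdk8-2 against cntrl in SnxB (0.370, 0.0890 and 0.190), and for shCdk8-2 the numbers in the headers differ. With the replicate block, 35, 31, 3 and 10 genes were called in the comparisons in DMSO and SnxB within the 12 libraries, and 1, 0, 31, 35, 0 and 0 in the others.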

Other observations

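Genes that regulate the cell cycle from outside the 53 also differed between lines. Of 7 listed CDK inhibitor genes, 5 could be tested, and Cdkn2a and Cdkn2b had 0 counts in all 18 libraries, which allows up to 0.182 CPM and covers counting error only. Cdkn2d, an inhibitor of CDK4 and CDK6, was at 38.8, 34.2 and 36.9 CPM in cntrl libraries, 22.9, 20.9 and 22.4 in shCdk8-1 libraries and 21.7, 21.5 and 23.3 in shCdk8-2 libraries, with log2 fold changes of -0.73 (SE 0.0604, adjusted p = 3.07e-08) with shCdk8-1 and -0.73 (SE 0.0601, adjusted p = 3.69e-08) with shCdk8-2 in edgeR's quasi-likelihood test. Cdkn1b, which encodes p27, was at 169, 160.0 and 164 CPM in cntrl libraries, 138, 130.4 and 131 in shCdk8-1 libraries and 149.7, 138 and 143 in shCdk8-2 libraries and fell with both hairpins (-0.31 and -0.20), as did Cdkn2c (-0.20 and -0.30). In Cdkn2d, Cdkn1b and Cdkn2c every knockdown library was below every cntrl library. Cdkn1a (p21) was called higher with shCdk8-1 (0.31 (SE 0.0497, adjusted p = 5.14e-05)) and was not called with shCdk8-2, where it had -0.10 (SE 0.0506, adjusted p = 0.0891). Cdkn1c had log2 fold changes of 1.27 and 1.31 at a level of only 0.566 ± 0.123 CPM (SD, n = 3) in cntrl cells.

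Of 7 genes of the MuvB complex and its MYB partners, 2 were called with shCdk8-1 (1 higher, 1 lower) and 3 with shCdk8-2 (all higher). That is 28.6% and 42.9% of the 7, below the 60.6% and 58.2% of all genes that were called. Mybl2, which encodes B-MYB, was the only one called with both hairpins, at 77.4, 79.9 and 83.3 CPM in cntrl libraries, 90.9, 95.4 and 97.5 in shCdk8-1 libraries and 96.1, 105 and 93.6 in shCdk8-2 libraries (0.24 (SE 0.0490, adjusted p = 5.86e-04) with shCdk8-1 and 0.28 (SE 0.0488, adjusted p = 1.15e-04) with shCdk8-2). In cntrl cells SnxB gave Mybl2 -0.07 on the log2 scale, which was not called.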
